A study of Homo sapiens with 12 samples.

Results

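Splicing factor genes were taken as all RefSeq coding genes whose symbol begins with SRSF, HNRNP, SF3A, SF3B, SNRP or PRPF, which gave 71 genes of 20037 placed on the chromosomes of the table. Of the 71 genes, 65 had at least 1 H3K9ac region within 1 kb of either annotated end, and of those regions the strongest by mean was taken. H3K9ac, acetylation of lysine 9 of histone H3, marks active promoters and enhancers and was measured by chromatin immunoprecipitation sequencing in MOLM-13, a line of human acute myeloid leukaemia cells with a KMT2A-MLLT3 fusion. The compared cells were treated with WM-1119, a small-molecule inhibitor of the lysine acetyltransferase KAT6A, at 4 µM for 4 days (3 libraries), or with the solvent DMSO (3 libraries). The series asks how WM-1119 changes the chromatin of these cells. Values are CPM, reads per 1000000 reads in the 47648 listed regions, not divided by width. They are shares of a fixed total, so a gain or loss over the whole genome cannot be seen.

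The spliceosome removes introns from pre-mRNA. SNRP genes encode Sm and other proteins of the small nuclear ribonucleoproteins (snRNPs) that recognise the splice sites. The SF3A and SF3B complexes belong to the U2 snRNP and hold it on the branch point, and PRPF proteins act in the tri-snRNP and in the remodelling steps that follow. SR proteins, encoded by the SRSF genes, mostly promote exon inclusion, and hnRNP proteins coat the transcript and often oppose them. SRSF2 and SF3B1 are recurrently mutated in myeloid neoplasms, and many SR and hnRNP proteins limit their own level by steering the splicing of their own transcripts.

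The promoters of 7 genes described below and of 1 retrogene relative are given first, because most of the strongest regions lay over them. Each line holds the 200 bases before the first RefSeq start site listed for the gene on GRCh38.p14, from 5′ to 3′ on the strand of the gene. Capitals mark a match on either strand to CCAAT (bound by NF-Y), GGGCGG (the GC box), CCGGAAG (the ETS core), TATAAA (the TATA box) or CACGTG (an E-box). The NRF1 palindrome and AAGATGGC (the YY1 core) were also searched, and neither occurs in the 8 windows. In HNRNPU the CCAAT matches on both strands overlap.
SRSF3, chr6:36594162-36594361, plus strand: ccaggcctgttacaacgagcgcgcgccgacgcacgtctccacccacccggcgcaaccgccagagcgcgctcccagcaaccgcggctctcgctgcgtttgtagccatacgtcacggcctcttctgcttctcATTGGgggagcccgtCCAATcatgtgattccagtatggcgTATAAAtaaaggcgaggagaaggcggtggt
HNRNPU, chr1:244864544-244864743, minus strand: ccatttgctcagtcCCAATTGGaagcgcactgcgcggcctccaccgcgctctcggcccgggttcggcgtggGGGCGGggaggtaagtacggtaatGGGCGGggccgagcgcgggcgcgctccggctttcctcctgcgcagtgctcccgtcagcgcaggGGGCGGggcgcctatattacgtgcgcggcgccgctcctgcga
SF3A2, chr19:2236624-2236823, plus strand: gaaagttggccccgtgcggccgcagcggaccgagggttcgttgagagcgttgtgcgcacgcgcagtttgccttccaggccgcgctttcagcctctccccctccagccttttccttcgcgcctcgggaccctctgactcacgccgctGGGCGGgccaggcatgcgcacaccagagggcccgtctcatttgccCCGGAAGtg
SF3B1, chr2:197435029-197435228, minus strand: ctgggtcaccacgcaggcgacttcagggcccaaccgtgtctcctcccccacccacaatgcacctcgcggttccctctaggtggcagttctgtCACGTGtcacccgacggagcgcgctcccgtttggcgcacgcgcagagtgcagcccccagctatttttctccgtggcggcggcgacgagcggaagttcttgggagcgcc
SNRPG, chr2:70293459-70293658, minus strand: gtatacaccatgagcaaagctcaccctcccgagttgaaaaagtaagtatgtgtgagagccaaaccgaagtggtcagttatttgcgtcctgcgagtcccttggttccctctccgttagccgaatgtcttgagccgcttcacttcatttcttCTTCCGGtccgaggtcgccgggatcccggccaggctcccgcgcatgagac
PRPF6, chr20:63980932-63981131, plus strand: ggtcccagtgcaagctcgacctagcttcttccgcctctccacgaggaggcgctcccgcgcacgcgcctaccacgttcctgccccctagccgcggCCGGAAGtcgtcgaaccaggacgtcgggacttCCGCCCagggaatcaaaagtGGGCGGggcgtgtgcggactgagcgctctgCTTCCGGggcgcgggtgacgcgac
HNRNPH1, chr5:179634785-179634984, minus strand: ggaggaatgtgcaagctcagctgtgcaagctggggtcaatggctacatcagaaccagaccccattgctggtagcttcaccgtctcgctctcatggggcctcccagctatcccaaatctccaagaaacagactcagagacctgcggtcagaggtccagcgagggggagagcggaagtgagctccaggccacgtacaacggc
HNRNPA1L2, chr13:52617325-52617524, plus strand: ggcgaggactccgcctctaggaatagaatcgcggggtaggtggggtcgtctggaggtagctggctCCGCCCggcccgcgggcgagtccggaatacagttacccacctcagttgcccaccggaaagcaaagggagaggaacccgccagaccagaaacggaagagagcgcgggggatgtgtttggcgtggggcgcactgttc
The printed HNRNPH1 stretch belongs to the farthest upstream of 4 listed starts, near which almost no H3K9ac was found; it holds 7 CpG dinucleotides and none of the motifs, and that of HNRNPU holds 29 CpG dinucleotides and 2 of the motifs.

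RefSeq promoter windows of 300 bases, 250 before and 50 after the start, matched 62 of the 71 genes. The 62 were not limited to windows under the gene's own region. Those of HNRNPCL1, HNRNPCL2, HNRNPCL4, HNRNPH1, SNRPN, SRSF11 and SRSF8 lay outside it. The shares of other windows under H3K9ac given below are therefore of a set chosen more narrowly. The ETS core was found in 20 of the 62 windows (32.3%), beside 21.6% of the 8448 windows of other coding genes that lay under the gene's own H3K9ac region and 14.2% of all 15781 other windows. It was unevenly spread: 3 of 3 SF3A windows, 3 of 5 SF3B windows and 7 of 11 SNRP windows held it, against 3 of 23 HNRNP, 2 of 11 SRSF and 2 of 9 PRPF windows. CCAAT was in 15 of 23 HNRNP, 6 of 9 PRPF, 4 of 11 SNRP, 2 of 11 SRSF, 1 of 5 SF3B and 0 of 3 SF3A windows. Over the 62 genes CCAAT was present in 45.2%, beside 36.7% of the windows under H3K9ac, and the GC box in 59.7%, beside 74.3%. The E-box that MYC and MAX bind was present in 8 of 62 windows (12.9%, beside 10.8%), 7 of them at HNRNP genes. The NRF1 palindrome was found in 0 of 62 windows and in 2.66% of the others under H3K9ac, YY1 in 4 (6.45%, beside 6.07%) and TATAAA in 6 (9.68%, beside 4.94%). These are counts of letters in a fixed window and not of bound sites.

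Before the results by family, 2 properties of the libraries have to be given, because they run through all of them. Reads in regions numbered 4542322, 9996190 and 12705349 for WM-1119 replicates 1, 2 and 3, and 719329, 1298443 and 7481097 for DMSO replicates 1, 2 and 3. Regions below the median in mean CPM held 3.35%, 2.70% and 2.19% of the CPM of the WM-1119 libraries and 8.95%, 7.19% and 2.35% of that of DMSO replicates 1, 2 and 3, so DMSO replicates 1 and 2 stood apart, with a smaller share in strong regions. Nothing in the labels tells whether the replicates of a group came from different cultures, and each p-value covers only the spread among these libraries, which may be technical. As a check of the label, blood and leukaemia genes fixed as markers had strong regions (SPI1, FLT3, HOXA9, MEIS1 and MYB with means of 245 to 1048 CPM, and PTPRC with 80.7), except CD33 at 3.67 CPM. Genes of other cell types had no region (ALB, HBB and KRT5) or a weak one (CD3E at 4.26 CPM and COL1A1 at 4.83 CPM).

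H3K9ac at the splicing factor genes was strong. The median mean of the 65 regions was 138 CPM, beside 53.3 CPM for the 10308 gene-end regions tested. Per length the medians were 39.8 and 25.6 CPM per kb, and the median widths 3081 and 1992 bp. A mean of at least 100 CPM was reached by 39 of the 65, and a mean of at least 10 CPM by 64. Per length the family medians were 45.4 CPM per kb for SNRP, 44.3 for HNRNP, 38.6 for SRSF, 35.8 for SF3A, 32.6 for SF3B and 28.5 for PRPF, and the families overlapped widely. The highest single values were 77.3 CPM per kb at HNRNPM, which encodes an hnRNP that binds GU-rich RNA, and 72.0 at SF3A2.

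The acetylated regions reached further into the gene than out of it. Of the 58 genes with a region and a listed start, 54 (93.1%) had the first listed start inside the region, beside 82.2% of 10042 other coding genes. Several starts were listed for 14 of the 58, and with any of them counted the number was 55 (94.8%, beside 84.2%). From the first start the 54 regions ran a median of 1873 bp into the gene and 1095 bp upstream, beside 1285 and 805 bp in other genes. The stretch inside the gene was the longer one in 40 of the 54 (74.1%), close to the 74.5% of other genes. HNRNPU, whose product binds nuclear RNA and chromatin, had the widest region, 13229 bp, with 10148 bp of it inside the gene. PRPF6, PRPF31 and PRPF40B were among the exceptions: PRPF6 had 4212 bp upstream and 1060 bp inside, toward its neighbour SAMD10. In 26 of the 65 genes (40.0%) the region also served the end of another coding gene, beside 33.3% of the other genes with a region. Such pairs included HNRNPA2B1 with CBX3, HNRNPA1 with CBX5, SF3A2 with PLEKHJ1, and SRSF2 with METTL23 and MFSD11, and in these the 2 promoters' signals cannot be told apart.

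**Figure D1:**
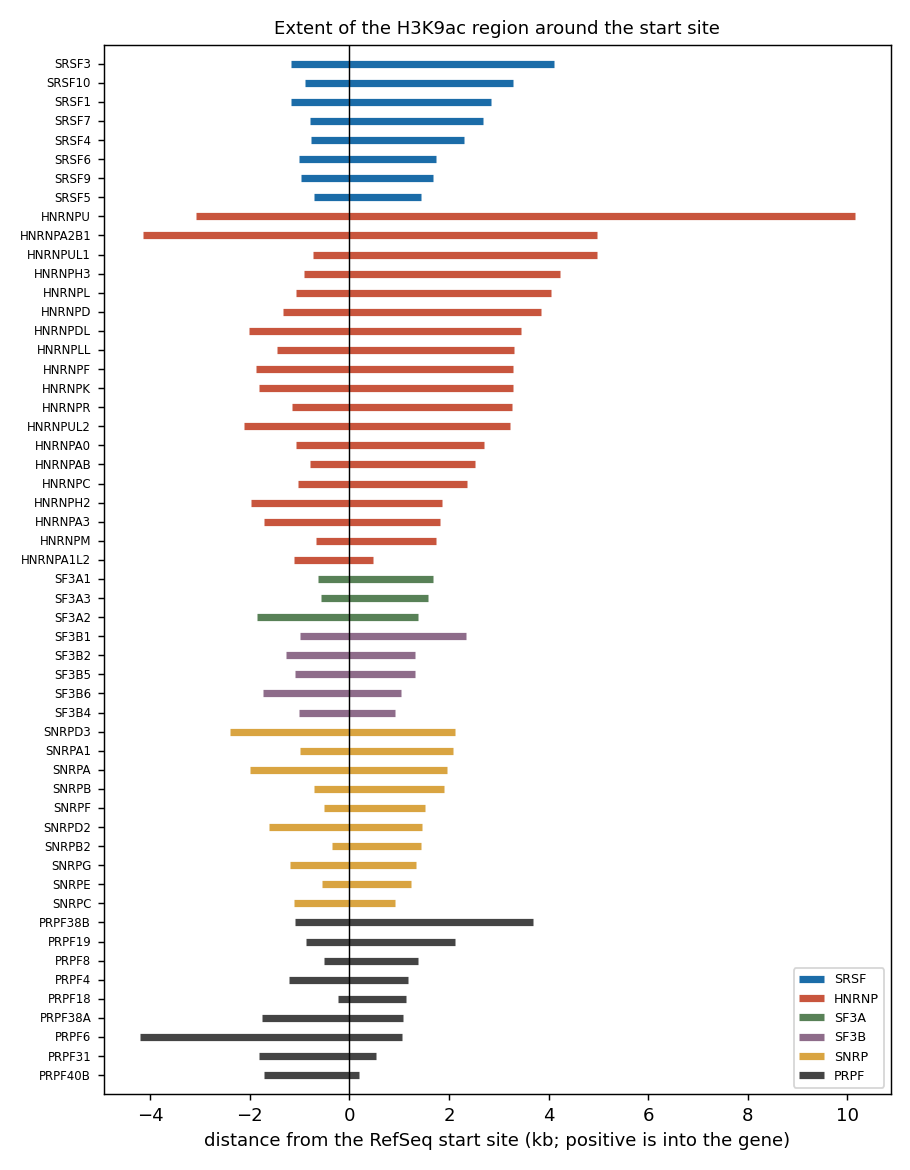
Extent of the H3K9ac region in kb on either side of the RefSeq start site (vertical line) for the 54 splicing factor genes whose region covers it, coloured by family. HNRNPU reaches 10148 bp into the gene, and PRPF6 reaches 4212 bp upstream.

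The strongest region lay elsewhere for a few genes. HNRNPH1, which encodes an hnRNP that binds runs of G, had 1 region near its ends, at chr5:179633856-179634092, with a mean of 2.19 CPM. A region inside the annotated gene, at chr5:179618671-179625238, covers the other 3 listed starts of HNRNPH1 and had 283, 257 and 275 CPM in the WM-1119 libraries and 186, 217 and 264 CPM in the DMSO libraries. It was among the stronger hnRNP regions, and its groups overlapped only through DMSO replicate 3, which lay within the WM-1119 range (log2 change 0.30 ± 0.15 SE, limma adjusted p = 0.368). SNRPN, the imprinted gene of an Sm protein, had no region within 1 kb of its ends at 24823637 and 24978723 on chromosome 15. Inside it a region at chr15:24954536-24957307, which covers 2 of its 4 listed starts, had 52.0, 53.3 and 63.3 CPM in the WM-1119 libraries and 38.9, 61.6 and 52.9 CPM in the DMSO libraries, which overlapped (log2 change 0.15 ± 0.20 SE, adjusted p = 0.640). SRSF11, the gene of an SR-related protein, had a region over each of its 2 listed starts. The one at the annotated end, shared with LRRC40, had a mean of 84.1 CPM, and the one at the start inside the gene had 97.7 CPM. These 3 genes and the retrogene relatives described next were picked out with their values known.

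Retrogene relatives of these genes had less H3K9ac per length than most of the others, or no region. HNRNPA1L3 and HNRNPCL1 to HNRNPCL4, copies of HNRNPA1 and HNRNPC, had no region within 1 kb of an end. HNRNPA1L2, another copy of HNRNPA1, had 26.6, 22.8 and 27.2 CPM in the WM-1119 libraries and 25, 25.4 and 24.7 CPM in the DMSO libraries, and the groups overlapped (log2 change 0.02 ± 0.25 SE, adjusted p = 0.957). Per length this was 16 CPM per kb, beside 41.5 at HNRNPA1. SRSF8, a retrogene related to SRSF2, had 40.7, 40.0 and 41.2 CPM in the WM-1119 libraries and 33.4, 28.5 and 32.2 CPM in the DMSO libraries. This was 21.9 CPM per kb, and the groups did not overlap, but the difference did not pass (log2 change 0.37 ± 0.22 SE, adjusted p = 0.398). Its promoter window holds 3 CpG dinucleotides and a GC content of 36.0%, where the median of the 62 windows is 27.5 and 61.7%, and its region began 179 bp past the start. How reads that match several copies were placed was not given in the sources used here, so values at copies and at their parents are uncertain.

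WM-1119 changed H3K9ac at none of the 65 splicing factor regions past the threshold. In limma across 44763 regions, with Benjamini-Hochberg adjustment at 0.05, 0 of the 65 were called higher and 0 lower, where 0.0% and 0.0603% of all regions were called, and adjusted p ran from 0.310 to 0.994. Of all gene-end regions 0.0% and 0.0097% were called. By unadjusted limma p under 0.05, 11 of the 65 (16.9%) were higher and 0 lower, beside 9.49% and 1.8% of gene-end regions and 2.58% and 10.8% of all regions. edgeR's quasi-likelihood test on the whole reads of 5 libraries called 0 of the 65 and 0.0% of all regions in both directions. Its unadjusted p was under 0.05 at 0 of the 65, beside 0.782% of all regions higher and 3.96% lower.

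Most of the 65 lay slightly higher with WM-1119. The log2 change was above 0 at 59 of 65, with a median of 0.21 (quartiles 0.11 and 0.27), where all regions had a median of -0.47 and all gene-end regions one of 0.12. These values differed between scalings: with quantile normalization, which moved the median of all regions up by 0.48, the median of the 65 was 0.04 and 41 were above 0. Median centring and edgeR's TMM moved all regions up by 0.77 and 0.34, and the medians of the 65 were 0.98 and 0.53 with 65 and 63 above 0. Relative to the median of all regions the 65 stood 0.68 higher as deposited, 0.68 with median centring, 0.66 with TMM and 0.03 with quantile normalization. A log2 change above 0 was found at 90.8% of the splicing factor regions, 67.1% of gene-end regions and 22.8% of all regions. The groups did not overlap at 7 of the 65, all higher with WM-1119, which is 10.8%, beside 13.4% of gene-end regions and 3.76% of all regions. None was lower without overlap, beside 3.25% and 13.2%. The 7 were HNRNPA0, HNRNPH2, PRPF38A, PRPF4, SF3A1, SNRPD2 and SRSF8. The regions of HNRNPH2, PRPF4, SF3A1 and SNRPD2 also served an end of GLA, CDC26, CCDC157 and QPCTL, in this order. In these the signals of the paired genes cannot be told apart. Of the 7 genes, 3 are not described elsewhere. HNRNPA0, the gene of an hnRNP that binds AU-rich elements, had 172, 179 and 174 CPM with WM-1119 and 168, 137 and 170 CPM with DMSO (log2 change 0.15 ± 0.15 SE, adjusted p = 0.563). PRPF38A, of the precatalytic spliceosome, had 99.7, 102 and 103 CPM with WM-1119 and 77.9, 97.0 and 92.2 CPM with DMSO (log2 change 0.19 ± 0.17 SE, adjusted p = 0.510). PRPF4, a U4/U6 snRNP protein, had 67.8, 74.0 and 66.3 CPM with WM-1119 and 55.6, 60.1 and 63.5 CPM with DMSO (log2 change 0.21 ± 0.18 SE, adjusted p = 0.506). The gaps between the groups at these 3 genes were of a few CPM.

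The difference moved with the DMSO libraries that stand apart. The median level over the 65 regions was 130, 131 and 151 CPM in WM-1119 replicates 1, 2 and 3, and 91.8, 119 and 147 CPM in DMSO replicates 1, 2 and 3. DMSO replicate 1 was the lowest of the 6 libraries at 53 of the 65 genes, and DMSO replicates 1 and 2 both lay below all WM-1119 libraries at 43. DMSO replicate 3 lay above all 3 WM-1119 libraries at 27 genes, within their range at 29 and below them at 9. Without DMSO replicates 1 and 2 the median log2 change was -0.08 and 19 of 65 were above 0, beside 57.3% of both all regions and gene-end regions. In that fit, which takes the spread of the single DMSO library to be that of the WM-1119 group, limma called 0 of the 65 and 0.0% of all regions. Of the 65, 1 was lower and 0 higher by unadjusted p under 0.05, beside 2.05% and 3.77% of all regions. Without DMSO replicate 3 the median was 0.36, and limma called 27 higher (41.5%) and 1 lower, SRSF12. In the same fit 5.28% of all regions were called higher and 38% lower, and 19.9% of gene-end regions higher and 7.85% lower. Of gene-end regions with the same mean as the splicing factor genes 41.6% were called higher. Variation within groups followed the same split: the median coefficient of variation was 6.76% in WM-1119 and 22.7% in DMSO, and it was larger in DMSO at 60 of the 65 genes. Over all gene-end regions the medians were 9.8% in WM-1119 and 19.4% in DMSO.

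**Figure D2:**
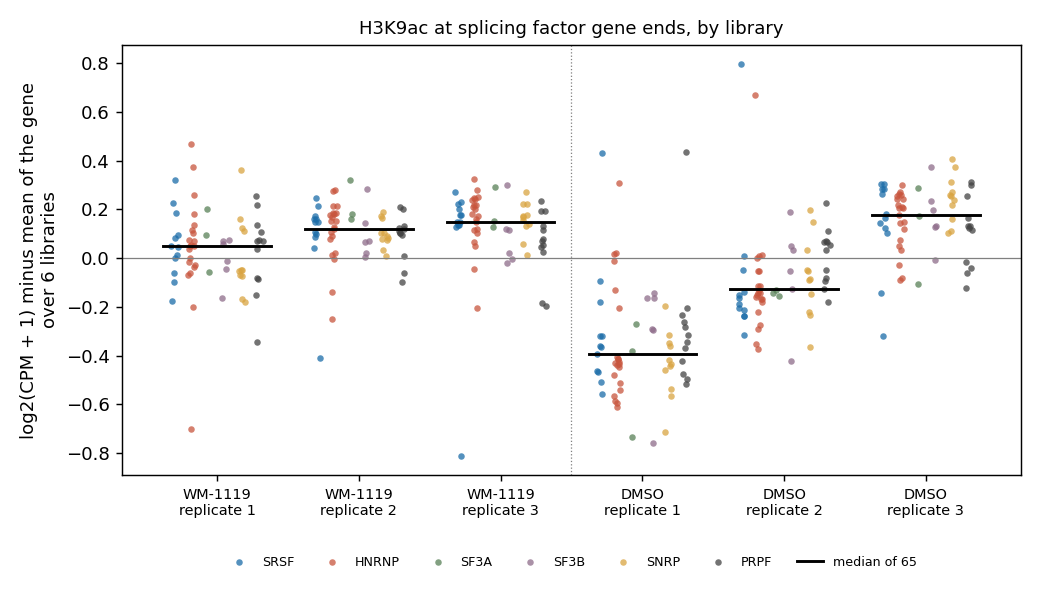
H3K9ac at each of 65 splicing factor regions in each library, as log2(CPM + 1) minus the mean of that gene over the 6 libraries, coloured by family, with the median as a bar. DMSO replicate 1 is the lowest library at 53 of 65 genes, and DMSO replicate 3 lies beside the WM-1119 libraries.

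Set against gene ends of the same strength, the splicing factor genes differed by less than the spread between libraries. For each of the 65 the 200 regions at ends of other coding genes with the nearest mean CPM were taken, and the difference in log2(CPM + 1) from their median was computed per library. The median difference was -0.01, 0.04 and 0.04 in WM-1119 replicates 1, 2 and 3 and -0.08, 0.05 and 0.09 in DMSO replicates 1, 2 and 3. The group means were 0.02 ± 0.03 and 0.02 ± 0.09 (SD, n = 3 each), so WM-1119 minus DMSO was 0.00, smaller than the spread between libraries. The change of the gene was above the median of its own comparison regions at 28 of the 65, below it at 34 and equal at 3, to 2 decimals. Among the comparison regions 85.5% had a log2 change above 0, 20.2% were higher at an unadjusted p under 0.05 and 17.9% were higher without overlap, beside 90.8%, 16.9% and 10.8% of the splicing factor regions. Against DMSO replicate 3 alone WM-1119 was 0.07 lower by the same measure. Regions stronger than 200 CPM were few, and for HNRNPU the nearest regions were weaker than the gene, with a median of 337 CPM beside its own 740; 3 genes had a mean over 1.1 times that of their comparison regions.

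By family the difference from gene ends of the same mean, WM-1119 minus DMSO, was 0.15 for SF3A, 0.04 for SRSF, 0.03 for HNRNP, -0.02 for PRPF, -0.03 for SNRP and -0.09 for SF3B. The SD between the DMSO libraries was 0.06 to 0.19 in these families, so only the SF3A value, from 3 genes, exceeded the SD of its own DMSO libraries, which was 0.14. That value rested on DMSO replicate 1, where the SF3A difference was -0.26, against -0.03 and 0.01 in DMSO replicates 2 and 3. Against DMSO replicate 3 alone the family values were 0.05 for SF3A, -0.03 for SRSF and HNRNP, -0.09 for PRPF, -0.11 for SF3B and -0.16 for SNRP. Single genes spread wider, and the extremes named here were chosen after their values were seen. SNRPG stood 0.35 higher with WM-1119, HNRNPH2 0.31 and SRSF8 0.28. SRSF12 stood at -0.39, PRPF6 and PRPF18 at -0.23 and SF3B1 and SF3B5 at -0.22. Against DMSO replicate 3 alone SNRPG was 0.03, HNRNPH2 0.15 and SRSF8 0.24. By the same measure SRSF12 and PRPF6 were each -0.30, PRPF18 and SF3B1 each -0.17 and SF3B5 -0.14.

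**Figure D3:**
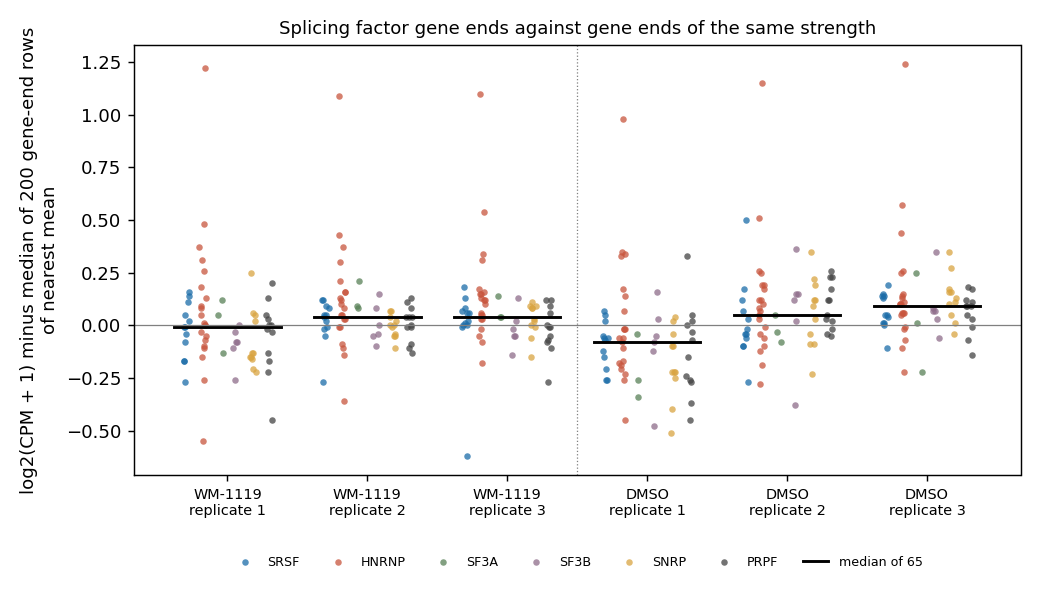
Difference in log2(CPM + 1) between each splicing factor region and the median of the 200 other gene-end regions nearest in mean, per library, with the median over 65 as a bar. The medians run from -0.08 to 0.09, and the groups overlap; the point near 1 in each library is HNRNPU, whose nearest regions are weaker than it.

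The size of the change went with the strength of the region. Among other gene-end regions the median log2 change was -0.40 for means of 1 to 10 CPM, 0.04 for 10 to 50, 0.17 for 50 to 100, 0.23 for 100 to 200 and 0.25 above 200 CPM. The splicing factor regions in the same 5 ranges numbered 1, 9, 17, 24 and 14 and had medians of -0.59, 0.14, 0.18, 0.24 and 0.25. Without DMSO replicates 1 and 2 the gradient in the other gene ends was turned, from 0.29 in the weakest range to -0.06 in the strongest. From weakest to strongest range their medians were 0.29, 0.10, 0.01, -0.01 and -0.06. Those of the splicing factor regions were lower in each range, at -0.20, 0.00, -0.06, -0.09 and -0.08.

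**Figure D4:**
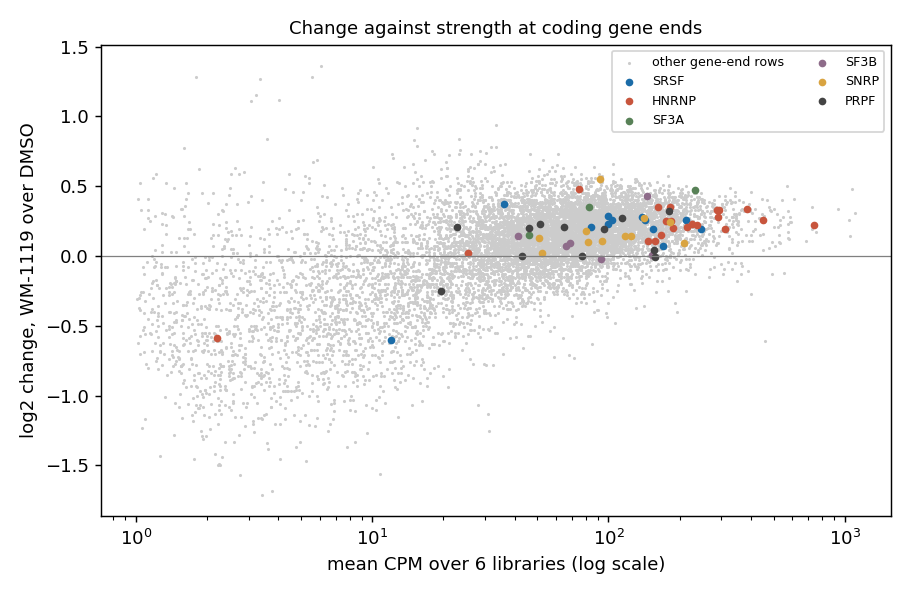
Log2 change (WM-1119 over DMSO) against mean CPM on a log axis for 10308 gene-end regions, with the 65 splicing factor regions coloured by family. They lie within the cloud of other gene ends of their strength, with SRSF12 and the HNRNPH1 end region among the weak ones below 0.

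Of the SR protein genes, 11 of 12 were above 0 with a median log2 change of 0.24, and 0 passed (limma adjusted p 0.394 to 0.790). The median was 0.05 with 8 above 0 with quantile normalization, and -0.06 with 4 above 0 without DMSO replicates 1 and 2. SRSF3, whose product also serves as an mRNA export adaptor, was the strongest at chr6:36593186-36598475. It had 243, 262 and 275 CPM in the WM-1119 libraries and 185, 219 and 292 CPM in the DMSO libraries. The highest and the lowest of the 6 values were both DMSO libraries (log2 change 0.19 ± 0.15 SE, adjusted p = 0.481). SRSF2, which activates exons through enhancer motifs, lies at chr17:76733947-76738900 and had 224, 233 and 233 CPM in the WM-1119 libraries and 168, 181 and 232 CPM in the DMSO libraries. Here DMSO replicate 3 fell within the WM-1119 range and the other DMSO libraries below it (log2 change 0.26 ± 0.15 SE, adjusted p = 0.394). At SRSF9, chr12:120468060-120470723, the values were 105, 115 and 109 CPM with WM-1119 and 79.2, 83.9 and 108 CPM with DMSO (log2 change 0.29 ± 0.17 SE, adjusted p = 0.398). SRSF12, a splicing repressor and the weakest SRSF region with 13 CPM per kb, had 14.1, 8.10 and 5.90 CPM in the WM-1119 libraries and 15.3, 20 and 8.69 CPM in the DMSO libraries. It was named after its values were seen, and its log2 change of -0.60 ± 0.38 (SE, adjusted p = 0.418) was 0.02 without DMSO replicates 1 and 2.

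Of 26 HNRNP genes 21 had a region, and 20 of the 21 were above 0, with a median log2 change of 0.23. The median was 0.04 with 14 above 0 with quantile normalization, and -0.08 with 6 above 0 without DMSO replicates 1 and 2. None passed (limma adjusted p 0.336 to 0.957). By unadjusted limma p under 0.05, 6 (28.6%) were higher, beside 9.49% of gene-end regions and 20.2% of the gene-end regions of the same mean as the 65 splicing factor genes. The median mean was 187 CPM for the HNRNP regions and 138 CPM for the 65, so neither share is matched to the strength of the HNRNP regions. HNRNPU, at chr1:244854395-244867623, held the most H3K9ac of all the splicing factor genes, with 802, 772 and 794 CPM in the WM-1119 libraries and 535, 654 and 882 CPM in the DMSO libraries. The WM-1119 values lay inside the DMSO range (log2 change 0.22 ± 0.13 SE, adjusted p = 0.401). HNRNPA2B1, which binds and sorts RNA, had 466, 478 and 529 CPM with WM-1119 and 336, 414 and 497 CPM with DMSO at chr7:26195770-26204882 (log2 change 0.26 ± 0.14 SE, adjusted p = 0.382). HNRNPUL1, a relative of HNRNPU, had 410, 430 and 440 CPM with WM-1119 and 260, 341 and 428 CPM with DMSO at chr19:41261828-41267528 (log2 change 0.34 ± 0.14 SE, adjusted p = 0.345). At both genes DMSO replicate 3 lay within the WM-1119 range.

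HNRNPH2, an X-linked gene closely related to HNRNPH1, had the highest log2 change of the family. Its region at chrX:101406240-101410074, shared with the end of GLA, had 95.1, 82.9 and 82.6 CPM in the WM-1119 libraries and 54.2, 56.2 and 77.1 CPM in the DMSO libraries. All 3 WM-1119 values were above all 3 DMSO values, yet the log2 change of 0.48 ± 0.18 (SE) did not pass over all regions (limma adjusted p = 0.336). Against DMSO replicate 3 alone it was 0.17.

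The U2 snRNP genes covered a wide range of changes. All 3 SF3A genes were above 0 with a median log2 change of 0.35, also with quantile normalization (0.19), but without DMSO replicates 1 and 2 the median was 0.06 and SF3A3, the third subunit, was at -0.21. The 6 SF3B genes had a median of 0.08 with 5 above 0, but -0.05 with 2 above 0 with quantile normalization and -0.11 with 1 above 0 without DMSO replicates 1 and 2. None passed (adjusted p 0.315 to 0.964). SF3A2, the gene of a zinc finger subunit of SF3A, had 242, 283 and 278 CPM in the WM-1119 libraries and 136, 205 and 256 CPM in the DMSO libraries at chr19:2234964-2238208. The groups overlapped through DMSO replicate 3 (log2 change 0.47 ± 0.16 SE, limma adjusted p = 0.315), and without DMSO replicates 1 and 2 the change was 0.06. SF3A1, at chr22:30355211-30357532, had 94.9, 93.4 and 91.6 CPM with WM-1119 and 68.1, 73.9 and 76.5 CPM with DMSO. Its groups did not overlap, and the change was 0.35 ± 0.17 (log2, SE, adjusted p = 0.367) and 0.28 without DMSO replicates 1 and 2.

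SF3B1, the subunit that clasps the branch-point helix, had a log2 change close to 0. At chr2:197432691-197436016 it had 136, 160 and 166 CPM in the WM-1119 libraries and 136, 147 and 175 CPM in the DMSO libraries. The lowest value of each group was 136 CPM and the highest value was a DMSO library (log2 change 0.01 ± 0.16 SE, adjusted p = 0.964). SF3B3, the large scaffold of the complex, had 149, 173 and 175 CPM with WM-1119 and 83.4, 130 and 167 CPM with DMSO at chr16:70522177-70525746 (log2 change 0.43 ± 0.17 SE, adjusted p = 0.340), which was -0.02 without DMSO replicates 1 and 2. SF3B4 had 42.7, 44.9 and 40.5 CPM with WM-1119 and 36.1, 30.0 and 52.9 CPM with DMSO at chr1:149926887-149928816 (log2 change 0.14 ± 0.21 SE, adjusted p = 0.689). The difference in change between these subunits was not tested.

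Of 12 SNRP genes 11 had a region, all above 0 with a median log2 change of 0.14 (-0.02 with 5 above 0 with quantile normalization, and -0.15 with 2 above 0 without DMSO replicates 1 and 2), and 0 passed (limma adjusted p 0.310 to 0.957). SNRPG, an Sm ring protein, had the smallest p of the 65 genes. Its region at chr2:70292119-70294649 had 115, 102 and 108 CPM in the WM-1119 libraries and 54.2, 69.3 and 107 CPM in the DMSO libraries. DMSO replicate 3 stood at the WM-1119 level while the other DMSO libraries were far below it (log2 change 0.55 ± 0.18 SE, unadjusted p 0.00349, adjusted p = 0.310), and the change was 0.02 without them. SNRPA, the U1 protein that binds a U1 RNA stem-loop, had 183, 232 and 225 CPM with WM-1119 and 160, 193 and 255 CPM with DMSO at chr19:40749216-40753168 (log2 change 0.09 ± 0.15 SE, adjusted p = 0.716).

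The Sm protein genes SNRPD3 and SNRPD2 differed in how far DMSO replicate 3 reached. SNRPD3 had 194, 189 and 202 CPM with WM-1119 and 132, 162 and 212 CPM with DMSO at chr22:24553254-24557768 (log2 change 0.24 ± 0.16 SE, adjusted p = 0.428). SNRPD2 had 156, 150 and 154 CPM with WM-1119 and 95.9, 143 and 150 CPM with DMSO at chr19:45690850-45693938, where the groups did not overlap by a margin under 1 CPM (log2 change 0.27 ± 0.16 SE, adjusted p = 0.402).

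The 12 PRPF genes had a median log2 change of 0.20 with 9 above 0, and 0 passed in limma. The median was 0.06 with 9 above 0 with quantile normalization, and -0.04 with 4 above 0 without DMSO replicates 1 and 2. PRPF19, a ubiquitin ligase of the activated spliceosome, had 130, 120 and 118 CPM with WM-1119 and 77.9, 98.6 and 138 CPM with DMSO at chr11:60904473-60907458 (log2 change 0.27 ± 0.17 SE, adjusted p = 0.419). At PRPF19 the highest value was a DMSO library. PRPF6, a tri-snRNP bridging protein, had overlapping groups, with 122, 166 and 183 CPM in the WM-1119 libraries and 120, 163 and 193 CPM in the DMSO libraries at chr20:63976920-63982192 (log2 change -0.01 ± 0.16 SE, adjusted p = 0.977).

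**Figure D5:**
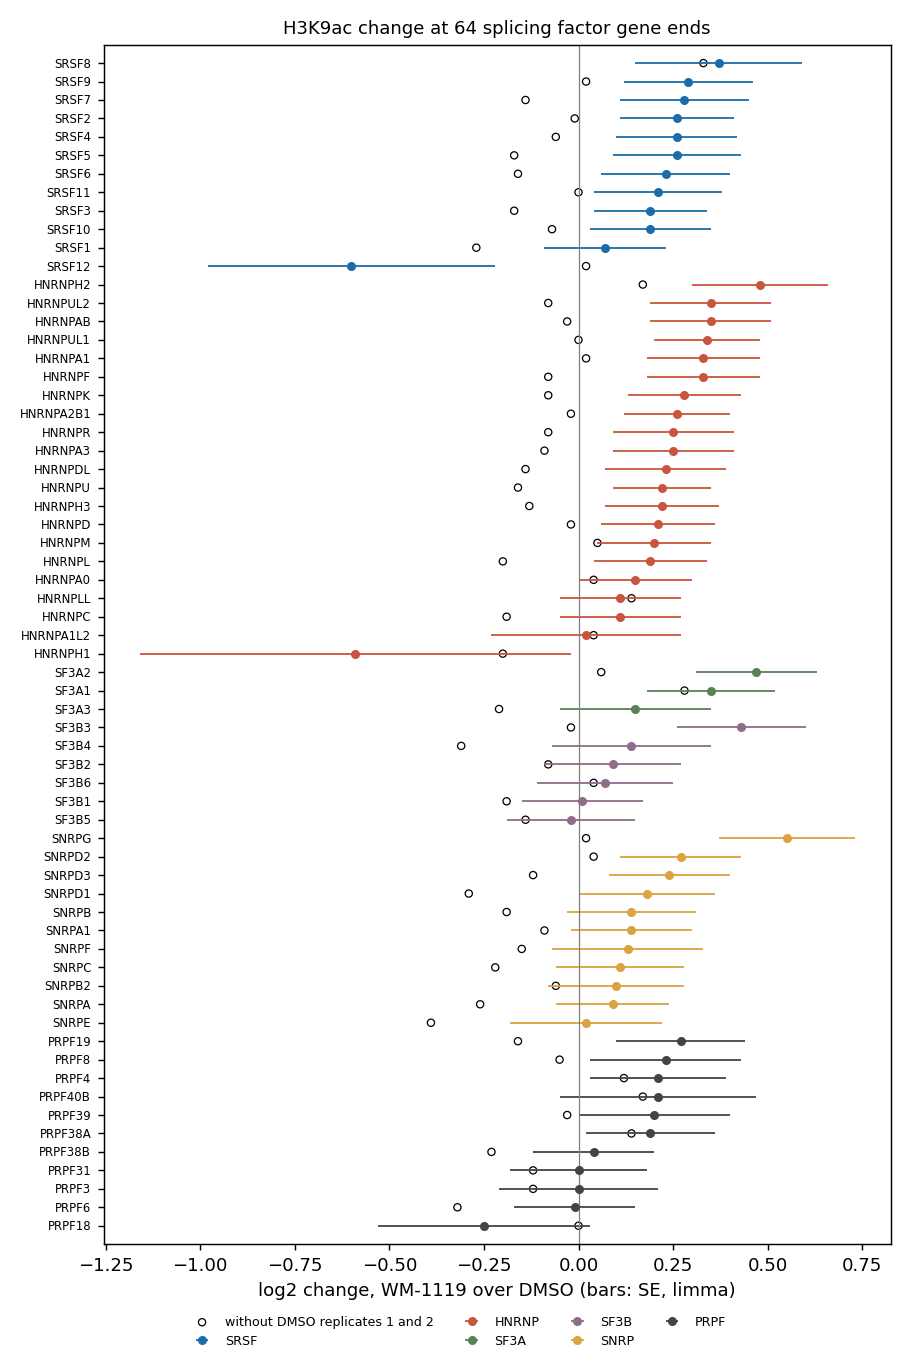
Log2 change (WM-1119 over DMSO, limma, bars SE) at 64 of the 65 splicing factor regions by family, with open circles for the change without DMSO replicates 1 and 2. Most filled points lie above 0, and most open circles lie to the left of their filled point.

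Weak regions inside the genes mostly lay lower with WM-1119 as deposited, and fewer of them did under other scalings. In edgeR with TMM 27 of 89 lay above 0 and 62 below, beside 19600 above 0 of all 44763 regions. With quantile normalization 40 of 89 lay above 0 and 49 below, beside 22851 above 0 of all regions. Only median centring put most of them above 0, 49 of 89, beside 32489 of all regions. The 71 genes held 90 further regions over 1 kb from their ends, of which 81 had a mean below 10 CPM. Of the 89 tested, 81 (91.0%) were below 0, beside 77.2% of all regions. Their median log2 change was -0.67, or -0.12 with quantile normalization, beside -0.47 and 0.01 over all regions. By unadjusted limma p under 0.05, 19 of the 89 were lower, beside 10.8% of all regions. At the same cut 1 was higher, the HNRNPH1 region described above, beside 2.58% of all regions. After adjustment 0 passed, where 0.0603% of all regions were called lower and 0.0% higher. Lowest in p was a region in SNRPB, the gene of an Sm protein, at chr20:2467826-2468700, with 4.84, 3.60 and 4.17 CPM in the WM-1119 libraries and 15.3, 16.2 and 5.61 CPM in the DMSO libraries. The region of HNRNPM at chr19:8487661-8488089 had 2.2, 1.1 and 2.75 CPM with WM-1119 and 11.1, 11.6 and 2.54 CPM with DMSO. That of HNRNPL at chr19:38847518-38848195 had 5.50, 4.20 and 3.54 CPM with WM-1119 and 16.7, 14.6 and 6.02 CPM with DMSO. The HNRNPM and HNRNPL regions had log2 changes of -1.47 ± 0.55 and -1.22 ± 0.46 (SE), and that of SNRPB was -1.24 ± 0.46 (adjusted p = 0.336 for each). In all 3 regions DMSO replicates 1 and 2 were high and DMSO replicate 3 lay close to the WM-1119 libraries. A read was worth 1.39 CPM in DMSO replicate 1 and 0.77 CPM in DMSO replicate 2, so their values here rest on small read counts. Over the 66 inner regions tested without DMSO replicates 1 and 2 the median was 0.04, with 37 above 0. The part of the larger share of weak regions in DMSO replicates 1 and 2 in these values was not tested.

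Other splicing genes were also without a called region. Outside the 6 symbol families, 119 genes of the spliceosome and its regulators, of snRNP assembly and of Sm-like proteins were listed, and 108 had a region. Of the 108, 90 were above 0, with a median log2 change of 0.15 (62 above 0 and a median of 0.04 with quantile normalization). In either direction 0 were past the threshold. The 90 above 0 are 83.3% of the 108, and 21 (19.4%) were higher by unadjusted limma p under 0.05. Gene-end regions of the same mean as the 65 splicing factor genes gave 85.5% and 20.2%, and all gene-end regions 67.1% and 9.49%. The median mean was 89.8 CPM for the 108 and 138 CPM for the 65, so neither share is matched to the strength of the 108. Splicing regulators had a median of 0.31 with 29 of 29 above 0, Sm-like proteins 0.26 with 9 of 10, and kinases of SR proteins 0.27 with 7 of 7. With quantile normalization these were 0.10 with 21 of 29, 0.16 with 6 of 10 and 0.12 with 5 of 7, and without DMSO replicates 1 and 2 they were -0.05 with 7 of 29, 0.05 with 5 of 10 and 0.03 with 4 of 7. Helicases and catalytic core proteins had a median of 0.11, other snRNP proteins 0.12, and genes of snRNP assembly 0.05. LSM1, of the cytoplasmic Sm-like ring and not of the spliceosome, had the smallest p. It had 393, 358 and 388 CPM in the WM-1119 libraries and 236, 239 and 351 CPM in the DMSO libraries (log2 change 0.49 ± 0.14 SE, limma adjusted p = 0.263). Its groups did not overlap. The regulators CELF1 and TRA2B had log2 changes of 0.53 ± 0.19 and 0.32 ± 0.14 (SE, adjusted p = 0.329 and 0.350); LSM1, CELF1 and TRA2B were named after their values were seen. Without DMSO replicates 1 and 2 the median of the 108 was -0.04, with 40 above 0.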

How the data were processed

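H3K9ac was profiled in 3 WM-1119 and 3 DMSO libraries; groups and replicate numbers follow the labels' titles. The 6 input samples were not analysed here. Per the submitters' processing notes, the tools were bedtools, Bowtie2, MACS2 and SAMtools and the build was hg38, without roles or versions. How regions were merged was not given in the sources used here. Values deposited by the authors carry the name TPM, but are CPM (reads per 1000000 in regions). The test is the one intended for TPM. In each library 100% of the values worth at most 100 reads were whole multiples of 1 step, with a tolerance of 0.02 reads. For WM-1119 replicate 2 the step lies near a round value, so no count test used it. Starts were treated as counted from 0 and 1 was added.

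Regions averaging 1 CPM or more over the 6 libraries entered limma 3.58.1 in R 4.3.3 (lmFit and a trended, robust eBayes) as log2(CPM + 1); p-values were adjusted by Benjamini-Hochberg over all of them. A change on that scale understates that of weak regions. Genes came from the RefSeq table of GRCh38.p14. Where its promoter table lists several starts, the first was used unless stated. Of 71 members 65 had a region and all 65 passed the filter. edgeR 4.0.16 (quasi-likelihood, TMM) ran on the recovered reads of 5 libraries. Alternatives were other pseudocounts (0.1 and 5), filters, scalings, a replicate block, omitted libraries, 50 or 1000 comparison regions, other rows for a gene, and subtraction of a background. That background was set for each chromosome of a library from regions of 500 to 1200 bp, at percentile 10 of their CPM per bp. The fit was tested on simulated data. A count of 0 allowed 0.236 to 0.66 CPM in the WM-1119 libraries and 0.401 to 4.17 CPM in the DMSO libraries (3 reads, for counting error only). Tables and figures used Python 3.11.15, pandas 2.3.3, numpy 2.4.6 and matplotlib 3.10.9.

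The genes named were, per family, the 2 with the highest mean and the 2 with the smallest p, plus SRSF2, SF3B1 and the 3 inner regions with the smallest p; of these genes and of the marker genes, 1 each is not reported here. Members, lists and rules were chosen with earlier results of these data known, so no list carries a test of its own.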

Additional observations from a re-analysis of the deposited data

How the results depend on the processing

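The count of splicing factor regions past the threshold was 0 under other pseudocounts, filters, scalings, the background subtraction, edgeR and the omission of both DMSO replicates 1 and 2. It was 2 with a replicate block (SF3A2 and SNRPG, both higher, where 0.25% of all regions were called higher) and 0 to 28 when 1 library was left out, the 28 arising without DMSO replicate 3. It was also 0 with the strongest region over the whole gene, an alternative chosen after seeing the data. Same-numbered libraries deviated together with r of 0.223, 0.0528 and 0.328 for replicates 1, 2 and 3. Only DMSO replicate 2 did not correlate best with its own number, by a small margin (0.0554 with WM-1119 replicate 1). The main fit did not take the numbers as pairs. The labels do not tell whether they are pairs, so both fits are given. Over all regions 27 passed; the count was 2 when regions averaging under 10 CPM were dropped, 1 with quantile normalization, 2 with median centring, 76 with background subtracted, 496 with a replicate block, and 0 without trend and robust, in edgeR and without DMSO replicates 1 and 2. Leaving out 1 library gave 0 to 19600. Of the 108 other splicing regions 1 passed with background subtracted (LSM1) and 1 with a replicate block, where 76 and 496 of 44763 regions passed. With 1 library left out the count was 0 to 40. The 40, of which 39 were higher and 1 lower, arose without DMSO replicate 3. In that fit 19.9% of gene-end regions were called higher and 7.85% lower. Of gene-end regions of the same mean as the 65 splicing factor genes 41.6% were called higher.

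The median log2 change of the splicing factor regions was 0.98 with median centring, 0.53 in edgeR, -0.08 without DMSO replicates 1 and 2, and 0.07 to 0.36 with 1 library left out; both scalings moved all regions, whose medians were 0.30 and -0.13. That of the other splicing genes was 0.92, 0.52, -0.04 and 0.09 to 0.26. The difference from gene ends of the same mean ran from -0.05 to 0.03 with 1 library left out and was -0.07 without DMSO replicates 1 and 2.

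Named genes changed sign mainly without DMSO replicates 1 and 2: SRSF2 to -0.01, HNRNPA2B1, SF3B3 and CELF1 to -0.02, SNRPD3 to -0.12, HNRNPU and PRPF19 to -0.16, SRSF3 to -0.17, SF3B1 to -0.19, SNRPA to -0.26, SF3B4 to -0.31, HNRNPUL1 to 0.00 and SRSF12 to 0.02. With quantile normalization HNRNPU and SRSF3 went to -0.03, SNRPA to -0.12 and SF3B1 to -0.20, with median centring SRSF12 to 0.17 and PRPF6 to 0.76, with background subtracted SF3B1 to -0.12, and in edgeR PRPF6 to 0.30. With 1 library left out SF3B1 ran from -0.07 to 0.11, SF3B4 from -0.04 to 0.36, SNRPA from -0.07 to 0.27, PRPF6 from -0.20 to 0.16, HNRNPA1L2 from -0.02 to 0.10 and the inner SNRPN region from -0.03 to 0.30. Causes were not tested. Depth limits DMSO replicate 1 most.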
